A study of Homo sapiens with 8 samples.

Results

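The genes described here are 42 members of the p53 pathway and the DNA damage response, taken by gene symbol from a deposited table of 11530 genes. They divide into 21 p53 targets and regulators and 21 repair and checkpoint genes, and all 42 passed the filter on low deposited values. RNA was sequenced from MonoMac 6, a cell line established from a human acute monocytic leukaemia, in 8 libraries. In 4 libraries the cells had received human APRIL, the cytokine encoded by TNFSF13, at 100 ng/mL for 24 h, and 4 control libraries came from cells without it. The treated cells were in RPMI without serum and the line is grown with 10% serum, while for the control cells no serum content is stated, so APRIL and serum cannot be told apart. Both groups had unnamed baseline cytokines. Whether the numbered libraries came from separate cultures is not stated, so the p-values reflect only how far these libraries differ, which may be technical. In bulk RNA, fewer cells expressing a gene and less RNA of it per cell cannot be told apart.

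p53 is a transcription factor held low by MDM2 and MDM4 and released when the kinases ATM and ATR, with CHEK2 and CHEK1 below them, sense broken DNA or stalled replication forks. It then switches on genes of cell cycle arrest, such as CDKN1A, of cell death, of redox and nucleotide metabolism and of repair, and it switches on MDM2, which closes a feedback loop. Some repair genes, such as BRCA1 and FANCD2, are expressed mainly in proliferating cells and others, such as the Ku subunits, broadly, and their proteins act largely by being recruited and phosphorylated.

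Values are the authors' log2 expression values, and a change is the APRIL mean minus the control mean on that scale, with its standard error from limma, a linear model fitted over all genes. The table gives its columns no replicate number, so libraries are named by the order of the columns within APRIL and within control. Reads recovered from the values came to between 938657 and 5342917 per library over 11152 genes, with APRIL column 3 the shallowest. APRIL column 3 and control column 1 stand apart from the other libraries, with quality weights in limma of 0.117 and 0.316 against 1.03 to 5.46, so results are also given without them. Of 14 markers of monocytic leukaemia, 13 were in the table, among them CD14, CD33, LYZ and MPO. Their changes were positive in 10 and negative in 3, with a median of 0.13, where 50.7% of all genes were negative. Without APRIL column 3 and control column 1 they were positive in 6 and negative in 7, with a median of -0.04 (50.8% of all genes negative). The list of erythroid markers and that of fibroblast, epithelial and endothelial markers had 0 genes in the table. Of the T and NK cell markers CD3D, CD3E, CD3G, CD2 and CD7 were not in the table, and NKG7, which was, stood at 10.86 to 12.19 with APRIL and 10.75 to 10.93 in control. Of the B and plasma cell markers, CD79A, CD79B and PAX5 were present, with CD79A at 1.81 to 2.28 with APRIL and 1.62 to 1.75 in control, and MS4A1 and SDC1 were not in the table. The part of any other cell type in the results was not tested.

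Repair and checkpoint genes had a negative change with APRIL in 20 of 21 cases, with a median of -0.32, and p53 targets and regulators were divided, 11 positive and 10 negative, with a median of 0.03. Over all 11257 genes tested the median change was -0.01 and 50.7% were negative. No member passed limma's adjusted threshold of 0.05, as was so for 0% of all genes, and the adjusted p of the members ran from 0.3999 to 0.9949. At an unadjusted p under 0.05 there were 5 of 42 members, the share over all genes being 11.9%. One of them was higher with APRIL (FDXR, where 6.25% of all genes were) and 4 were lower (ZMAT3, TP53INP1, FANCD2 and RAD50, where 5.69% were). All APRIL libraries exceeded all control libraries for 1 member (3.62% of all genes) and lay below all of them for 4 (4.19%). The 95% interval of a member's change reached a median of 0.43 to either side of it.

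The repair genes differed most in a pair of libraries. Measured as each gene's deviation from its own mean, the repair genes had a median of -0.07, 0.10, -0.52 and -0.20 in APRIL columns 1 to 4 and of 0.44, 0.06, 0.13 and 0.06 in control columns 1 to 4. APRIL column 2 thus lay above 2 of the control libraries. APRIL column 3 held the lowest value of the 8 for 17 of the 21 genes, and control column 1 the highest for 13. The p53 side stayed between -0.06 and 0.02 in all 8 libraries, because its members went in both directions. Here control column 1 was highest for 8 genes and lowest for 6, and APRIL column 3 was highest for 8 and lowest for 4. Without APRIL column 3 the median change of the repair genes was -0.19, with 20 of 21 negative (50.2% of all genes). With control column 1 left out as well it was -0.14, with 18 of 21 negative (50.8% of all genes). The p53 side was then at -0.08, and the p53 median minus the repair median, which was 0.34 over all libraries, was 0.065. At an unadjusted p under 0.05 there were 7 of 42 members without APRIL column 3 (9.28% of all genes), 2 without control column 1 (4.5%, with 50.8% negative) and 3 without both (7.52%), the last being FDXR, ZMAT3 and FANCD2. These medians carry no test, since the members were chosen with results of these data known.

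**Figure D1:**
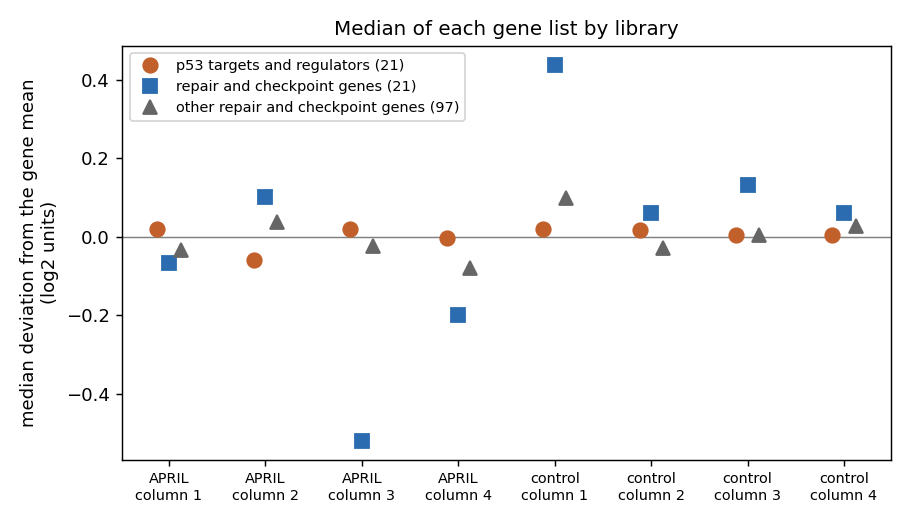
Median deviation of the members from their own gene means (vertical axis, log2 units) in each of the 8 libraries (horizontal axis), for 21 p53 targets and regulators, 21 repair and checkpoint genes and 97 further repair and checkpoint genes. The repair members are at -0.52 in APRIL column 3 and at 0.44 in control column 1, and the p53 side lies within -0.06 to 0.02.

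Neither of the 2 inhibitors of p53 passed. MDM2, the ubiquitin ligase that degrades p53 and is itself its target, stood at 5.40, 5.57, 5.28 and 5.45 with APRIL and at 5.99, 5.53, 5.54 and 5.24 in control. Its change was -0.15 ± 0.17, control column 1 was the highest library and control column 4 the lowest, and without control column 1 the change was -0.01. MDM4, the partner of MDM2 that masks the activation domain of p53, gave -0.10 ± 0.16, with all 8 values between 2.53 and 3.04, and ran from -0.17 to -0.03 with single libraries left out. After the dependence of each library on transcript length and GC content was taken out, MDM2 was at 0.17 and MDM4 at 0.19. That used the longest transcript, which for MDM2 has 12633 bases, where its principal transcript has 2523.

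Genes of cell cycle arrest had a positive change in 4 of 5 cases, where 50.7% of all genes were negative. In the fit to all 8 libraries 0 of the 5 reached an unadjusted p under 0.05, the share over all genes being 11.9%. CDKN1A, which encodes the cyclin-dependent kinase inhibitor p21, stood at 6.28, 5.96, 6.60 and 6.11 with APRIL and at 5.43, 6.06, 5.98 and 6.13 in control. The change was 0.33 ± 0.19 (limma adjusted p = 0.4150), 1.26-fold. The groups overlapped, with control column 1 lowest and APRIL column 3 highest, and the change was 0.21 without the latter, 0.18 without the former and 0.06 without both. CDKN1A rested on 33 to 137 recovered reads per library. GADD45A, a stress protein that restrains cell cycle entry into mitosis, stood at -0.77 to 0.88 and had only 2 reads in APRIL column 3. Its change was 0.35 ± 0.39, or 0.73 without that library and 0.18 without APRIL column 4. BTG2, an antiproliferative cofactor of mRNA deadenylation, gave 0.23 ± 0.285 and the stress kinase PLK3 gave 0.03 ± 0.25. With single libraries left out BTG2 ran from 0.01, without control column 2, to 0.41, without control column 4, and PLK3 from -0.23 to 0.17. Cyclin G1 (CCNG1), which recruits a phosphatase to MDM2, was the 1 member of this group with a negative change, -0.16 ± 0.13, and control column 1 at 5.92 stood above the other control libraries at 5.58 to 5.63. Without it the change was -0.08.

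FDXR, the mitochondrial reductase that passes electrons from NADPH to ferredoxin, had the highest change of the 42 members. It stood at 6.10, 5.93, 7.32 and 6.09 with APRIL and at 5.37, 5.82, 5.51 and 5.74 in control, on 29 to 124 reads per library. This was the 1 member with the groups apart in this direction, a change of 0.75 ± 0.28 or 1.68-fold (limma adjusted p = 0.3999). APRIL column 3 lay more than a log2 unit above the other treated libraries, and without it the change was 0.43. Around it, the other metabolic targets went both ways. TP53I3, a quinone oxidoreductase, gave 0.50 ± 0.28 (0.25 without APRIL column 3). TIGAR, which lowers fructose 2,6-bisphosphate and is listed under its older symbol C12orf5, stood at 5.03, 4.78, 4.51 and 4.57 with APRIL and at 5.50, 4.85, 5.13 and 4.85 in control. APRIL column 1 lay above 2 of the control libraries, and the change was -0.36 ± 0.19 (limma adjusted p = 0.4003), or -0.22 without control column 1. RRM2B, the ribonucleotide reductase subunit used outside S phase, stood at 4.32, 4.31, 4.46 and 4.25 with APRIL and at 4.89, 4.35, 4.61 and 4.62 in control. Its groups overlapped only through APRIL column 3 and control column 2, with a change of -0.28 ± 0.15 (limma adjusted p = 0.4003). The sestrins, which restrain mTORC1, were at -0.02 ± 0.13 for SESN1 and 0.10 ± 0.17 for SESN2, from -0.09 to 0.03 and from 0.02 to 0.23 with single libraries left out.

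Targets linked to cell death and survival contained the 2 lowest changes of the p53 side. ZMAT3, a zinc finger protein that binds RNA, stood at 5.81, 5.91, 5.98 and 5.97 with APRIL and at 6.71, 6.52, 6.51 and 5.94 in control. The 4 treated values were close together, and control column 4 was the 1 control library among them. The change was -0.50 ± 0.17, 0.705-fold (limma adjusted p = 0.3999), and when each library was left out in turn it ran from -0.66 to -0.41. ZMAT3 rested on 9 to 57 reads. TP53INP1, which promotes p53-dependent death and autophagy, stood at 2.87, 3.22, 3.34 and 3.38 with APRIL and at 4.37, 3.29, 3.48 and 3.85 in control, a change of -0.54 ± 0.24 (limma adjusted p = 0.3999) on only 3 to 20 reads. The groups overlapped, control column 1 was the highest library, and without it the change was -0.34. AEN, an apoptosis-enhancing nuclease, gave 0.27 ± 0.18, PHLDA3, an inhibitor of AKT, 0.22 ± 0.26 and TRIAP1, a survival factor of mitochondrial lipid transfer, 0.15 ± 0.25. Without APRIL column 3 these were 0.15 for AEN, 0.10 for PHLDA3 and -0.10 for TRIAP1, and without control column 1 AEN was at 0.15 and PHLDA3 at 0.03.

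Among the repair genes that p53 itself induces, DDB2, the ultraviolet damage sensor, gave 0.27 ± 0.20, POLH, the polymerase that copies past ultraviolet lesions, -0.22 ± 0.14 and XPC, the recognition factor of nucleotide excision repair, -0.44 ± 0.31. XPC rested on 1 library. It stood at 3.31 in APRIL column 3, with 12 reads, and at 4.70 to 4.91 in the other treated libraries against 4.66 to 5.05 in control, and without that library the change was -0.07. POLH was then at -0.12.

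The promoters of the p53 side were searched for the core p53 motif, the decamer that is repeated in a full p53 response element, on both strands. FDXR and AEN are shown because they held it, and ZMAT3 because it had the smallest p among the p53 targets with a negative change. RefSeq promoters of GRCh38.p14 matched 34 of the 42 members, 17 on each side, and the 250 bases before the start were read, 5′ to 3′ on the gene's strand, with the p53 motif in capitals:
FDXR (chr17:74872995-74873244, minus strand): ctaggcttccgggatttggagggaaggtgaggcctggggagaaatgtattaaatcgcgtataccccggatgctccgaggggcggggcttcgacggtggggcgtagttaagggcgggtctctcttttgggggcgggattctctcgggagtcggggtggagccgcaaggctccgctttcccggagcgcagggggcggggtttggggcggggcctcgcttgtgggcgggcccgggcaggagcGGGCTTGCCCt
AEN (chr15:88621090-88621339, plus strand): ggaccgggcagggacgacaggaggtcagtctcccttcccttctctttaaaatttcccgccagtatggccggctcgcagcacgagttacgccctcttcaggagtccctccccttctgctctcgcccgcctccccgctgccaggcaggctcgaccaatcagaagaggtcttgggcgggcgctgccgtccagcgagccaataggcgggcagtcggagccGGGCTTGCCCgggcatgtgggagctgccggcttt
ZMAT3 (chr3:179071810-179072059, minus strand): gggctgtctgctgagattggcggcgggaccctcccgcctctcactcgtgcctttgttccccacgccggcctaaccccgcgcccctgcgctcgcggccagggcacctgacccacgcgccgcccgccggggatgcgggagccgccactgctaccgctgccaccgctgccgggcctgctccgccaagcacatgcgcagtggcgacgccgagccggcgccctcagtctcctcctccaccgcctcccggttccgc
The p53 motif began at position -11 in FDXR and -34 in AEN, counted back from the start. It was found in 2 of 17 promoters of the p53 side (11.8%) and 0 of 17 of the repair side, against 4.34% of 8752 promoters of genes in the table and 5.53% of all 27305 RefSeq promoters. An E2F site, TTTGGCG or TTTCGCG on either strand, was found in 1 of 17 (MDM2) and 0 of 17, against 4.66% of the promoters of genes in the table. The CHR element TTTGAA, searched on both strands, was found in 1 of 17 on the p53 side (MDM4) and 2 of 17 on the repair side (ATM and MDC1), against 8.4%. No member's promoter held more than 1 of these 3 motifs. A match describes the letters of this window only.

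The 4 apical and effector kinases of the checkpoint all had a negative change, as did 50.7% of all genes. ATR, which responds to single-stranded DNA at stalled forks, had the lowest change of all members. It stood at 4.98, 5.0, 3.42 and 4.71 with APRIL and at 5.48, 5.49, 5.04 and 4.98 in control, a change of -0.72 ± 0.33, 0.607-fold (limma adjusted p = 0.3999). APRIL column 3, with 17 reads, was the lowest by more than a log2 unit, and without it the change was -0.35. ATM, which responds to double-strand breaks, stood at 4.37, 4.72, 3.80 and 4.23 with APRIL and at 5.02, 4.54, 4.56 and 4.38 in control, a change of -0.34 ± 0.21 (limma adjusted p = 0.4319), or -0.18 without APRIL column 3. Its groups overlapped, APRIL column 2 being above 3 of the control libraries, and with the length and GC trends removed ATM was at -0.01. The kinases below them gave -0.12 ± 0.16 for CHEK1 and -0.03 ± 0.24 for CHEK2, from -0.20 to -0.05 and from -0.17 to 0.12 with single libraries left out.

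**Figure D2:**
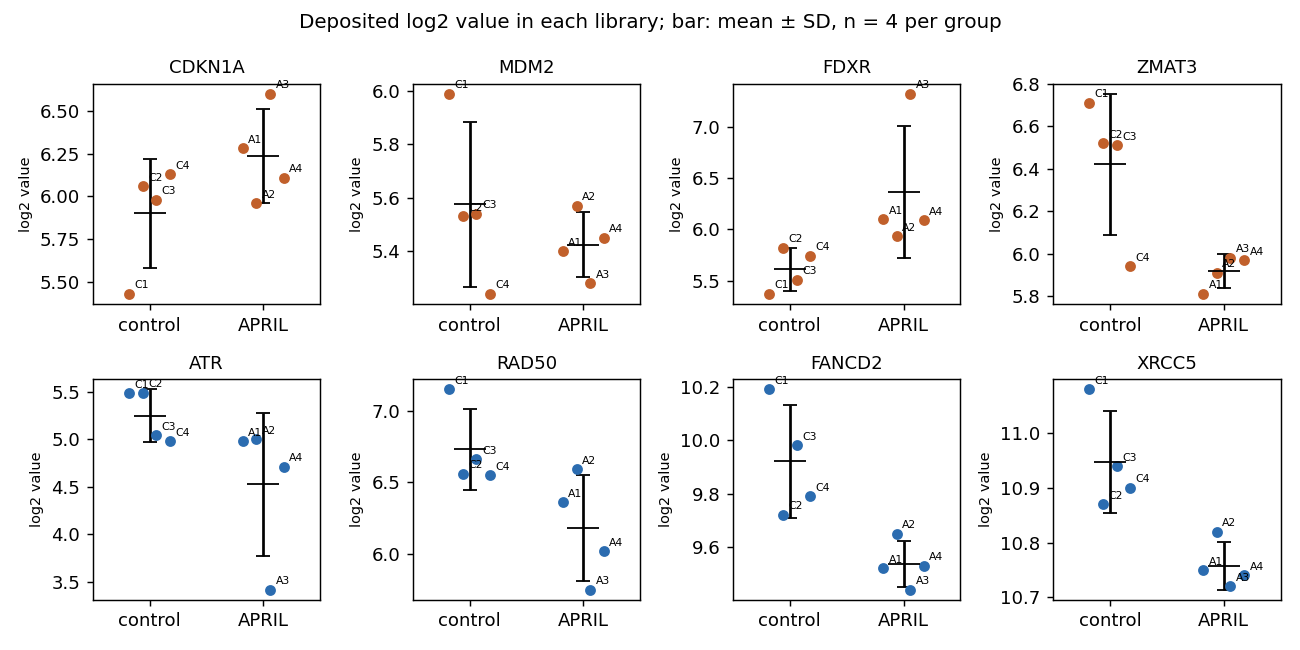
Deposited log2 value (vertical axes) in each control library (C1 to C4) and APRIL library (A1 to A4) for 4 genes of the p53 side and 4 repair and checkpoint genes, with the mean ± SD of 4 libraries. The groups are apart for FDXR, FANCD2 and XRCC5, and overlap for the other 5 genes. APRIL column 3 (A3) is the highest library for FDXR and CDKN1A and the lowest for ATR, RAD50, FANCD2 and XRCC5.

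Break sensors and mediators had a negative change in 6 of 6 cases (50.7% of all genes), and 1 (RAD50) reached an unadjusted p under 0.05 (5.69% of all genes in this direction). RAD50, the coiled-coil ATPase of the MRN complex that tethers broken ends, stood at 6.36, 6.59, 5.75 and 6.02 with APRIL and at 7.15, 6.56, 6.66 and 6.55 in control. Only APRIL column 2 reached the control range, and the change was -0.55 ± 0.21, 0.682-fold (limma adjusted p = 0.3999). Without APRIL column 3 it was -0.41, and without control column 1 as well it was -0.27. Its partners were at -0.27 ± 0.23 for the nuclease MRE11A and -0.23 ± 0.15 for NBN, the subunit that recruits ATM, and both were near 0 with the length and GC trends removed (0.01 and -0.02). The chromatin mediators TP53BP1 and MDC1 gave -0.38 ± 0.20 and -0.29 ± 0.17, and RAD17, which loads the checkpoint clamp, -0.39 ± 0.20. For TP53BP1, APRIL column 3 at 4.19 was again the lowest library, and without it the change was -0.19, with MDC1 at -0.14 and MRE11A at -0.07. NBN was at -0.12 without control column 1.

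FANCD2, the Fanconi anaemia protein that is ubiquitinated at crosslinks, had the smallest p of the 42 members. It stood at 9.52, 9.65, 9.44 and 9.53 with APRIL and at 10.19, 9.72, 9.98 and 9.79 in control, on 77 to 570 reads per library. Every treated library lay below every control library, a change of -0.38 ± 0.13, 0.767-fold (limma adjusted p = 0.3999). Left-out libraries moved it between -0.45 and -0.29, and with the length and GC trends removed it was at -0.19. FANCI, which pairs with FANCD2, gave -0.32 ± 0.17, or -0.19 without APRIL column 3, and FANCA, of the core complex that ubiquitinates the pair, -0.14 ± 0.38. FANCA was at 0.43 in APRIL column 3, with 11 reads, against 2.04 to 2.27 in the other treated libraries and 1.67 to 2.16 in control, and without that library it turned to 0.29.

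Homologous recombination genes had a negative change in 3 of 3 cases (50.7% of all genes), and 0 passed. BRCA1, the ubiquitin ligase that favours resection of broken ends, stood at 9.10, 9.37, 8.02 and 8.91 with APRIL and at 9.74, 9.01, 9.28 and 8.97 in control. The groups overlapped, the change was -0.40 ± 0.28 (limma adjusted p = 0.4677), or -0.12 without APRIL column 3, and without APRIL column 3 and control column 1 it turned to 0.04. BRCA2, a mediator of strand exchange, was at 2.14 to 2.41 with APRIL and 2.41 to 3.24 in control, a change of -0.41 ± 0.20 whose groups were parted only in the third decimal. Control column 1 was its highest library, and without it the change was -0.22. PALB2, which bridges BRCA1 and BRCA2, gave -0.13 ± 0.16, from -0.19 to -0.08 with single libraries left out. With the length and GC trends removed BRCA1 was at -0.14, BRCA2 at -0.06 and PALB2 at 0.01.

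Of the end joining genes, 2 of 3 had a negative change (50.7% of all genes) and 0 passed. PRKDC, the catalytic subunit of the DNA-dependent kinase, stood at 11.36, 11.57, 10.65 and 11.16 with APRIL and at 11.86, 11.65, 11.51 and 11.34 in control, a change of -0.40 ± 0.19 (limma adjusted p = 0.3999). APRIL column 2 lay above 2 of the control libraries and APRIL column 1 above 1, and without APRIL column 3 the change was -0.23. XRCC5, the larger Ku subunit, had a narrow spread, 10.72 to 10.82 with APRIL and 10.87 to 11.08 in control, with groups that did not overlap and a change of -0.19 ± 0.10 (limma adjusted p = 0.4003), 0.877-fold. XRCC6, the other Ku subunit, was at 0.00 ± 0.11. MSH6, the mismatch sensor, stood at 4.29, 4.33, 3.67 and 4.17 with APRIL and at 4.54, 4.54, 4.37 and 4.38 in control. Its groups did not overlap and its change was -0.34 ± 0.17 (limma adjusted p = 0.4003), or -0.19 without APRIL column 3. With the length and GC trends removed XRCC5 was at -0.07 and MSH6 at -0.065. PARP1, the polymerase that marks single-strand breaks, gave -0.16 ± 0.13, or -0.04 without APRIL column 3.

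**Figure D3:**
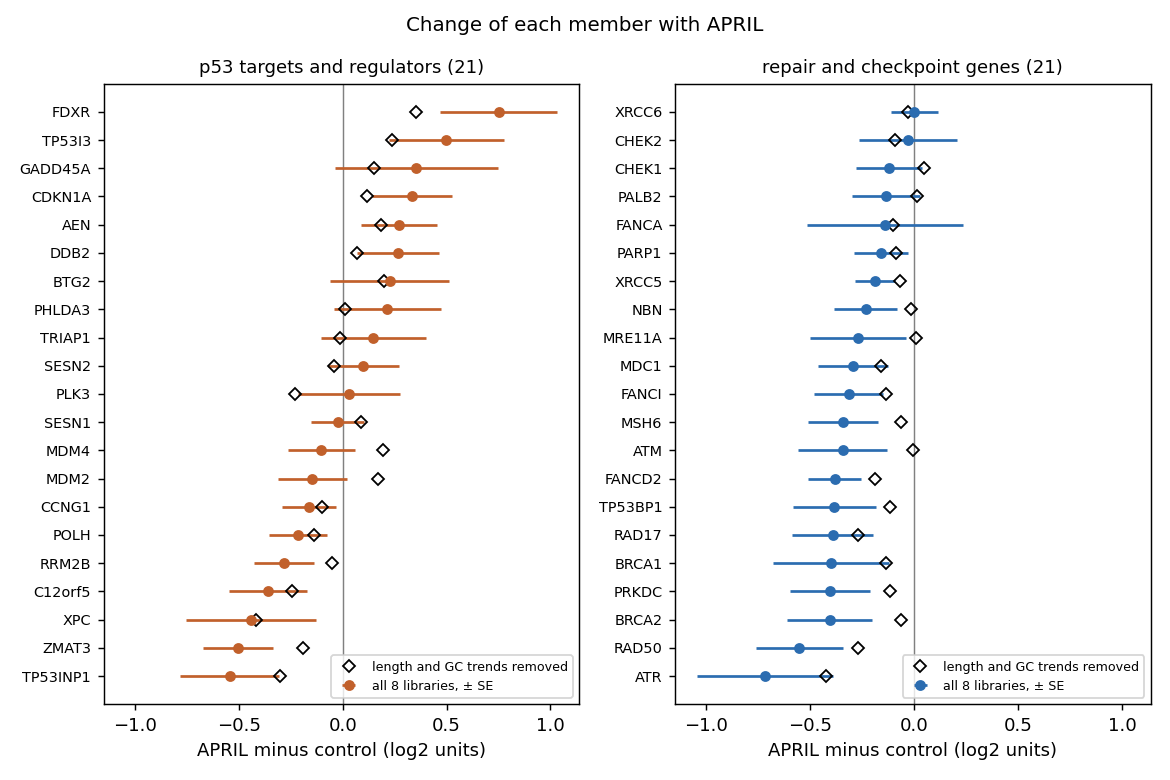
Change of each of the 42 members (horizontal axis, APRIL minus control in log2 units), with filled points and SE bars for all 8 libraries and open diamonds after the dependence on transcript length and GC content was taken out of each library. Of the repair genes, 20 of 21 filled points and 18 of 21 diamonds are below 0, and the diamonds lie closer to 0.

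The changes ran along transcript length. Over 10791 genes the change with APRIL had a Spearman's rho of -0.563 with the length of the longest GENCODE transcript and 0.519 with its GC content, as a description, since all genes share the same 8 libraries. With both libraries that stand apart left out, rho was -0.333 with length and 0.415 with GC content. Over the 42 members rho was -0.75 with length and 0.65 with GC content, and with length it was -0.77 within the p53 side and -0.73 within the repair side. The repair members are long, with a median of 5451 bases and 42.8% GC, where the p53 side had 3117 bases and 50.3% and all genes tested 3357 bases and 48.3%. ZMAT3 (9406 bases) and TP53INP1 (5638 bases), with the lowest changes of the p53 side, are among its longer members. By the longest transcript MDM2 (12633 bases) and MDM4 (10073 bases) are longer still, but the principal transcript of MDM2 has only 2523 bases. FDXR (1967 bases) and TP53I3 (1998 bases), with the highest changes, are among the shorter members of the p53 side. With the trends removed, the repair median was -0.09, the p53 median 0.01, and the difference between them 0.10. A negative change was then left in 18 of 21 repair genes and 10 of 21 p53 genes, where 51.8% of all genes were negative, and 1 of 42 members (RAD50) had an unadjusted p under 0.05, against 7.84% of all genes. FDXR was then at 0.35, ZMAT3 at -0.19, ATR at -0.43 and RAD50 at -0.27.

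**Figure D4:**
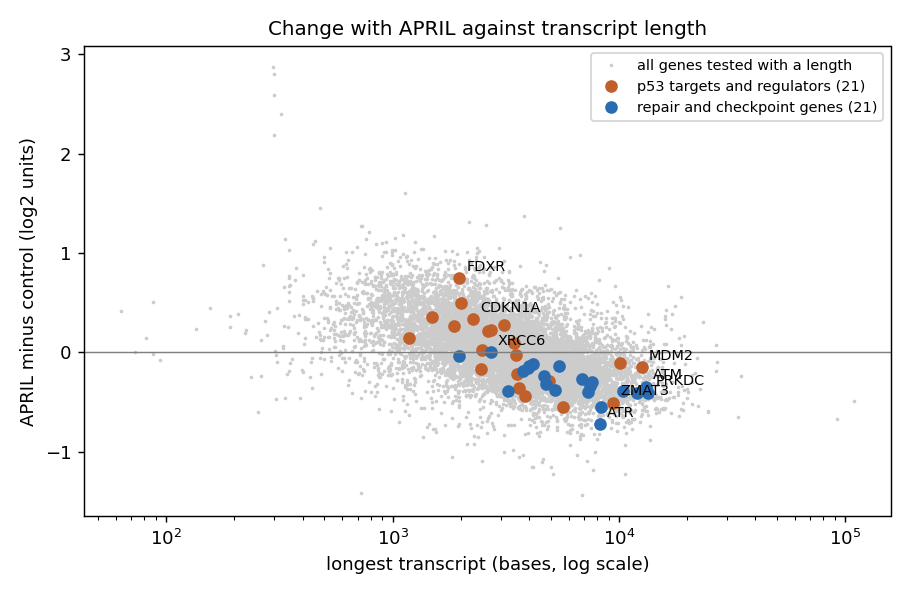
Change with APRIL (vertical axis, log2 units) against the length of the longest transcript (horizontal axis, bases on a log scale) for all genes tested with a length (grey), the p53 side (orange) and the repair and checkpoint side (blue). Members of both sides follow the downward slope of all genes, with a rho of -0.75 over the 42 members.

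Further genes of the same pathways were divided in direction. Of 98 other repair and checkpoint genes, 97 were tested, 43 with a positive and 54 with a negative change, a median of -0.05 and a median length of 3108 bases. Over all genes tested 50.7% were negative. At an unadjusted p under 0.05 there were 5 higher (6.25% of all genes) and 10 lower (5.69% of all genes), and 0 passed. Groups did not overlap for 3 of the 97 with APRIL above (3.62% of all genes) and 5 with APRIL below (4.19%). The smallest p values were those of FANCB, of the Fanconi core complex, at -0.58 ± 0.16, of MGMT, which removes alkyl groups from guanine, at 0.90 ± 0.29, and of the junction resolvase GEN1 at -0.57 ± 0.19. All had limma adjusted p = 0.3999 and were among those without overlap. FANCB had 6 reads in APRIL column 3. Without that library and control column 1 FANCB was at -0.51 and GEN1 at -0.32. MGMT stood at 1.03, 1.06, 2.25 and 1.32 with APRIL and at 0.55, 0.79, 0.53 and 0.18 in control, and was at 0.64 without APRIL column 3 and control column 1. Of 45 other p53 pathway genes, 27 were tested, 17 positive and 10 negative with a median of 0.07, and 0 passed. HIPK2, a kinase that phosphorylates p53, led them at -0.60 ± 0.21, followed by the p53 relative TP73 at 0.61 ± 0.27 and SERTAD1 at 0.73 ± 0.34. TP73 was at 0.40 and SERTAD1 at 0.39 without APRIL column 3. S phase and proliferation genes had 23 positive and 19 negative changes among 42 tested, with a median of 0.05, and 0 passed. Here MKI67 was at -0.62 ± 0.26, TOP2A at -0.44 ± 0.19 and CDK4 at 0.37 ± 0.17. Leaving out APRIL column 3 gave -0.36, -0.29 and 0.21.

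Levels can be compared between genes only per length, here as recovered reads per kilobase of the principal GENCODE transcript, scaled to the recovered total of each library (RPKM), for the 39 members whose reads could be recovered. Reads of PRKDC, XRCC5 and PARP1 were not recovered, so their places in this order are not known. Of the 39, XRCC6 was the highest in control at 225 ± 16.7 (SD, n = 4). It was followed by CCNG1 at 61.2 ± 7.41, TRIAP1 at 54.9 ± 6.14, FANCI at 47.4 ± 6.74 and NBN at 40.5 ± 6.97. Each of these last 4 lay within the summed SD of its neighbour. CDKN1A, at 10.9 ± 2.18, was in the middle of the order beside XPC (11.2 ± 1.32) and DDB2 (10.5 ± 1.7), and MDM2 was at 19.4 ± 4.36. The lowest were BRCA2 at 1.82 ± 0.547, ZMAT3 at 1.62 ± 0.342 and TP53INP1 at 0.969 ± 0.364, and each lay within the summed SD of its neighbour.

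In the authors' deposited table, whose p-values are not adjusted, 3 of the 42 members had p under 0.05, where 8.52% of its genes did. These were XRCC5 (p = 0.00922 in the authors' deposited table, fold 0.877), FANCD2 (p = 0.0151 in the authors' deposited table, fold 0.767) and ZMAT3 (p = 0.0259 in the authors' deposited table, fold 0.705). FDXR had p = 0.0686 in the authors' deposited table.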

How the data were processed

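RNA of 4 APRIL and 4 control libraries was measured with the Illumina TruSeq RNA v2 kit, per the labels, which does not mark strand. Per the file headers, the authors deposited log2 values scaled by a TMM factor, a p-value and a linear fold ratio per gene, with a log10 p-value and a sign score beside them that were not used. Per the submitters' processing notes, TopHat2 2.0.13, bcl2fastq and hg19 were used. For the read counter and annotation nothing is stated.

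limma 3.58.1 (R 4.3.3) was fitted to the log2 values of 11257 genes with a linear value of at least 1 in at least 4 libraries, with intensity trend and robust empirical Bayes, two-sided, with Benjamini-Hochberg adjustment over all genes. It was tested on simulated data with independent normal errors for each gene. These held no library that stands apart and no trend with length or GC content, so the fit was not tested for those. The values fit log2 of reads plus 0.5 over a divisor per gene, which gave back whole reads in 11152 of 11530 genes (96.7%) and, in a check with moved constants, in 0 of 500. That divisor differs between genes, so deposited levels are not compared between genes. The filters therefore act on deposited values and not on reads. The stricter one, at a linear value of 4, left out DDB2 (22 to 112 reads) and kept TP53INP1 (3 to 20 reads). Lengths and GC content came from GENCODE 29 and were removed with splines of 5 degrees of freedom per library. Python 3.11.15, pandas 2.3.3 and matplotlib 3.10.9 were used.

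Members and lists were chosen with earlier results of these data known. Values in every library are given for the 5 members per side with the smallest p and for CDKN1A, MDM2, ATM, ATR and BRCA1, and the 3 smallest p are named from each wider list. AEN, XPC and the other members are named as members. The columns carry no replicate numbers. The alternatives were other filters, library weights, left-out libraries, centring, trend removal and voom on recovered reads.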

Additional observations from a re-analysis of the deposited data

Results flagged for a closer look

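Among 84 groups of 4 values (42 members in 2 groups), 6 single values stood far from the other 3 of their group by Dixon's gap test. About 1 group in 20 does so by chance, and 4 of the 6 were in APRIL column 3. The share over all genes was not counted. APRIL column 3 stands apart over all genes (quality weight 0.117), so these values are not read as particular to the members. In that library FDXR was at 7.32 (others 5.93 to 6.10), XRCC6 at 9.77 (others 9.47 to 9.52), XPC at 3.31 (others 4.70 to 4.91) and FANCA at 0.43 (others 2.04 to 2.27). CCNG1 was at 5.92 in control column 1 (others 5.58 to 5.63), and TP53I3 at 3.45 in control column 2 (others 4.06 to 4.18).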

How the results depend on the processing

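No member passed the adjusted threshold under any alternative. The number of genes called was 0 in each, leave-one-out included (0 to 0), except 4 with library quality weights, and 507 to 2247 genes had an unadjusted p under 0.05, against 1344 in the reported fit. Leave-one-out values ran from -0.043 to 0.167 for the p53 median (0.028 as reported), the repair median from -0.413 to -0.188 and their difference from 0.145 to 0.528, with 9 to 11 negative members on the p53 side and 19 to 20 on the repair side. The p53 median was -0.064 with the stricter filter (38 members left), -0.029 with quality weights, -0.079 without APRIL column 3 and control column 1, 0.066 with voom on 39 members and 0.099 with XPC, DDB2 and POLH counted as repair genes and MDM4 left out. With quality weights the repair median was -0.158 and the difference 0.129. The difference was 0.065 without the 2 libraries and 0.102 with the trends removed. With quality weights the sign turned for BTG2 (-0.088), PLK3 (-0.150), TRIAP1 (-0.029), SESN1 (0.049), XRCC6 (-0.074), MRE11A (0.034) and FANCA (0.134). Without APRIL column 3 and control column 1 it turned for PLK3 (-0.147), MDM2 (0.039), PHLDA3 (-0.088), TRIAP1 (-0.118), SESN1 (0.014), XRCC6 (-0.060), MRE11A (0.038), BRCA1 (0.040) and FANCA (0.226). With the length and GC trends removed it turned for PLK3 (-0.230), MDM2 (0.168), MDM4 (0.193), TRIAP1 (-0.014), SESN1 (0.090), SESN2 (-0.041), CHEK1 (0.047), XRCC6 (-0.030), MRE11A (0.007) and PALB2 (0.014). Centring turned XRCC6 (-0.008) and voom FANCA (0.087). Leave-one-out turned PLK3 (-0.231 to 0.167), TRIAP1 (-0.104 to 0.308), SESN1 (-0.087 to 0.033), CHEK2 (-0.165 to 0.122), XRCC6 (-0.066 to 0.034) and FANCA (-0.324 to 0.289). The cause was not tested. No paired analysis was possible because the columns of the table carry no replicate numbers. APRIL column 3 held at most 20 reads for 15 of the 39 members with recovered reads, down to 2 for GADD45A, which limits their precision there.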
